A study of Mus musculus with 6 samples.

Results

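Genes for the protein components of the cytosolic ribosome (RP genes) were followed in 6 single-cell RNA-seq libraries of cultured mouse myeloid progenitors. A gene column was taken as a member by its name, which had to be Rpl or Rps, an optional p, digits and any of the letters a, x, l and y to the end, and Rpsa was added. Pseudogene columns, whose names carry -ps, were left out. This gave 82 of 27998 gene columns, of which 51 are named for the large subunit (60S) and 31 for the small subunit (40S). Of the 82 members, 79 had a mean of at least 20 CPM (unique molecular identifiers, or UMIs, summed over a library's cells and scaled to the same total) over the 6 libraries and entered the comparisons, among 4789 genes in all. The other 3 were Rpl10l and Rpl39l, which had 0 UMIs in each library, and Rpl3l, with a mean of 12.4 CPM. A count of 0 allows up to 3 UMIs, which is between 0.537 and 0.851 CPM depending on the library. The members lie on 19 chromosomes, with 14 of them on chromosome 7.

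The cells were granulocyte-macrophage progenitors of strain C57BI/6, labelled Lys-GFP-ER-HoxA9 cells, in which HOXA9 is fused to an estrogen receptor domain so that estradiol and stem cell factor keep them dividing as progenitors (iGMPs). In the CAF-1 OFF arm, a clone was given IPTG to switch on an shRNA that targets Chaf1b, which encodes part of the chromatin assembly factor CAF-1, while estradiol was kept. In the HOXA9 OFF arm, a clone with a control shRNA was grown without estradiol, which inactivates the fusion protein. Each arm was sampled uninduced with estradiol (0 h) and at 48 and 96 h, as 1 library of live-sorted cells per time. Every arm is therefore 1 clone and every time point 1 library, no difference below was tested, and between the arms clone and treatment cannot be told apart.

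The cytosolic ribosome is assembled in the nucleolus from ribosomal RNA and a fixed set of proteins, most of which are present once per ribosome. Their mRNAs are among the most abundant in growing cells, and most begin with a run of pyrimidines, the terminal oligopyrimidine tract, through which growth signalling acts on their translation. Progenitors divide and make much protein, whereas neutrophils, the cells that iGMPs become without HOXA9, have left the cell cycle and carry granule proteins made earlier.

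The 5872 kept cells held between 3524285 and 5589486 UMIs per library, and the median cell held between 2043.5 UMIs (HOXA9 OFF 96 h) and 8660 UMIs (HOXA9 OFF 0 h). The limit on mitochondrial UMIs had removed 41.7% and 66.2% of barcodes from the 0 h libraries of CAF-1 OFF and HOXA9 OFF, but 0.198% from HOXA9 OFF 96 h. No pair of libraries shared more than 7 cell barcodes. Chaf1b was at 35.6, 3.22 and 6.49 CPM at 0, 48 and 96 h of CAF-1 OFF, and at 51.5, 15.3 and 1.13 CPM through HOXA9 OFF, where no shRNA targets it. The 10 neutrophil granule and S100 genes fixed as markers took 0.00330%, 0.0718% and 0.119% of UMIs along the CAF-1 OFF arm. Along HOXA9 OFF they took 0.00291%, 1.05% and 14.5%, all 10 being detected at 96 h. The 8 progenitor genes (such as Mpo, Prtn3 and Ctsg) took 0.746%, 0.899% and 1.14% along CAF-1 OFF but 0.660%, 0.402% and 0.0156% along HOXA9 OFF, and each of the 8 was detected in every library. The higher sum at CAF-1 OFF 96 h came from part of the list, with 4 genes above and 4 below their 0 h level. At HOXA9 OFF 96 h all 8 were below it. The 28 cell cycle genes summed to 3997, 1331 and 47.4 CPM along HOXA9 OFF, and 9 genes known to respond to cell dissociation, such as Fos and Jun, to 35.1, 332 and 1146 CPM. The markers of other blood cells were uneven. In CAF-1 OFF 96 h megakaryocyte genes summed to 2697 CPM (45.8 at 0 h) and mast cell or basophil genes to 4006 CPM (260 at 0 h). In HOXA9 OFF 48 h eosinophil genes summed to 19335 CPM (1481 at 0 h), while 10 erythroid genes summed to no more than 47.6 CPM. Only 3 of 8 megakaryocyte, 3 of 8 mast cell or basophil and 4 of 8 eosinophil genes had a mean of at least 20 CPM. The part of these cells and signals in the results below was not tested.

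The RP genes took over 20% of all UMIs in 5 of the 6 libraries and under 10% in the last. Their summed share was 27.1% in the uninduced CAF-1 OFF library, 25.7% at 48 h and 25.9% at 96 h. In HOXA9 OFF it was 27.9% at 0 h, 27.3% at 48 h and 8.70% at 96 h (exact 95% binomial interval 8.67 to 8.73%, which covers counting error only). The library of HOXA9 OFF 96 h was thus 3.20-fold lower than its own 0 h library (exact 95% interval 3.19 to 3.22, counting error only), a log2 ratio of −1.68. The other ratios were −0.08 for CAF-1 OFF at 48 h, −0.07 at 96 h and −0.03 for HOXA9 OFF at 48 h, and the uninduced clones differed from each other by 0.04 on this scale. The sign of the small ratios turned with another scaling of the libraries for CAF-1 OFF at 96 h (0.01 with TMM factors) and HOXA9 OFF at 48 h (0.28). Under those factors the ratio at HOXA9 OFF 96 h was −1.19. The median log2 ratio of all counted genes was −0.23 at HOXA9 OFF 48 h and −0.56 at 96 h, and with TMM factors, under which 4802 genes were counted, 0.05 and −0.13.

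Large and small subunit genes moved together in these sums. The UMIs of the 60S genes were between 1.31 and 1.35 times those of the 40S genes in all 6 libraries, including HOXA9 OFF 96 h at 1.32, so the lower total there came with an unaltered balance of the subunits' mRNAs. The median log2 ratio at HOXA9 OFF 96 h was −1.72 over 48 counted 60S genes and −1.78 over 31 40S genes.

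Single cells showed the same picture as the sums. The median cell of CAF-1 OFF gave 26.9%, 25.7% and 26.0% of its UMIs to RP genes at 0, 48 and 96 h. The median cell of HOXA9 OFF gave 27.7%, 26.9% and 5.55%. In numbers of molecules, the median cell held 1767, 1544 and 1528 RP UMIs along CAF-1 OFF but 2426, 983 and 114.5 along HOXA9 OFF. Outside the RP genes it held 4748, 4467 and 4422 UMIs along CAF-1 OFF but 6287, 2540.5 and 1913.5 along HOXA9 OFF. Between 0 and 48 h of HOXA9 OFF, RP and other UMIs per cell were therefore lower side by side. Between 48 and 96 h both were lower again, the RP UMIs by a much larger proportion than the others. In HOXA9 OFF 96 h, 1218 of 1510 cells (80.7%) were under 10% and 4.57% were over 20%, while 7 of 1404 cells were under 10% at 48 h and none was in the other 4 libraries. After every cell was thinned to 1000 UMIs, leaving out between 0 and 36 shallower cells per library, the median shares along CAF-1 OFF were 27.1%, 25.7% and 26.0%, and those along HOXA9 OFF 27.9%, 26.9% and 5.6%. The spread among cells was wider than sampling of UMIs gives in each library, by 3.59 to 5.73 times in the CAF-1 OFF libraries and HOXA9 OFF 0 h, and by 6.72 and 8.57 times in HOXA9 OFF at 48 and 96 h.

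**Figure D1:**
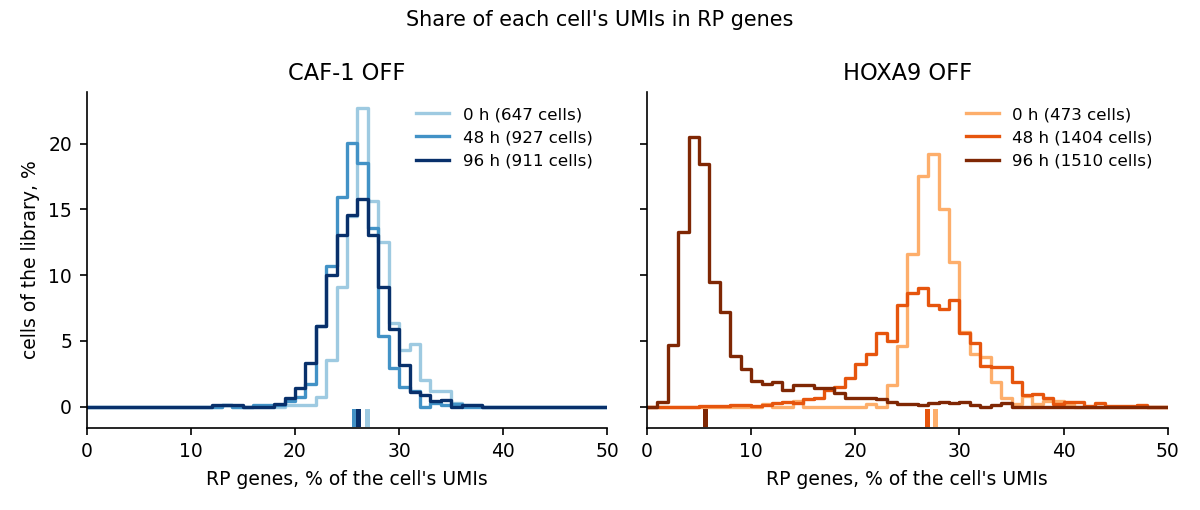
Share of each kept cell's UMIs that RP genes took, in percent (x axis, bins of 1 percentage point), against the percent of the library's cells (y axis), for CAF-1 OFF (left) and HOXA9 OFF (right) at 0, 48 and 96 h. Short bars under the axis mark library medians. The 3 CAF-1 OFF libraries lie on top of each other, with medians from 25.7% to 26.9%, and the HOXA9 OFF library at 96 h is shifted to a median of 5.55%.

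The cell filter bears on the per-cell values of the uninduced libraries. The 927 barcodes removed from HOXA9 OFF 0 h had a median of 717 UMIs and 89.2% mitochondrial UMIs, and a median RP share of 3.29%. With them included, the median over all barcodes of that library was 5.74%, close to the 5.54% over all barcodes at 96 h. Of the other UMIs of these removed barcodes a median of 29.8% were in RP genes, against 29.2% in the kept cells of that library and 5.68% in the kept cells of HOXA9 OFF 96 h. In the CAF-1 OFF libraries this median was 22.3%, 20.1% and 11.2% in the removed barcodes at 0, 48 and 96 h, below the 28.4%, 27.2% and 27.7% in the kept cells. The removed barcodes of HOXA9 OFF 0 h held 17.6% of its UMIs, and the log2 ratio of the summed share over all barcodes was still −1.52.

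In CAF-1 OFF the RP genes stayed close to their uninduced levels, as did most of the 4789 counted genes. None of the 79 was at least 2-fold lower at 48 h or at 96 h, where 0.0418% and 0.856% of the 4789 genes were. None was at least 2-fold higher either, where 2.76% and 5.22% of all genes were. The median log2 ratio of the members was −0.09 at 48 h and −0.06 at 96 h, beside 0.00 and −0.08 for all genes, and 69 and 58 of 79 members were below 0 (71 and 34 with TMM factors, so at 96 h the side of 0 depends on the scaling). The members' spread around their median (root mean square) was 0.0954 at 48 h, equal to the 0.0953 between the uninduced libraries of the arms, and 0.182 at 96 h, against 0.0197 from counting.

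At 96 h the members furthest below the median in CAF-1 OFF were Rpl5, Rps2, Rpl36, Rpl7a and Rpl12. Rpl5, which binds the 5S ribosomal RNA with Rpl11 and can hold back MDM2, was at 2355, 1891 and 1553 CPM at 0, 48 and 96 h, a log2 ratio of −0.60 at 96 h. Rps2, a core protein of the small subunit, was at 5473, 5022 and 3917 CPM (−0.48). Rpl36, Rpl7a and Rpl12 were at 1253, 1440 and 1613 CPM at 96 h, from 1617, 1854 and 2074 CPM at 0 h, each with a log2 ratio of −0.36. In all 5 genes the value at 48 h lay between those at 0 and 96 h.

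Among the members furthest above the median were Rpl23a, Rps28, Rps27 and Rps19. Rpl23a, which sits at the exit of the peptide tunnel, was at 2273, 2635 and 3135 CPM (0.46). Rps28 was at 1240, 1308 and 1699 CPM (0.45), Rps27 at 1270, 1361 and 1559 CPM (0.29) and Rps19 at 6387, 7097 and 7611 CPM (0.25). In each of these 4 genes the level was higher at 48 h than at 0 h and higher again at 96 h. All of these ratios were under 2-fold.

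After 48 h of HOXA9 OFF most RP genes lay near their 0 h level, while many other genes did not. The members' median log2 ratio was −0.07, against −0.23 for all genes, and 44 members were below and 35 above 0 (13 and 66 with TMM factors). Of the 79 members, 1 was at least 2-fold lower, where 19.6% of all genes were, and 0 were at least 2-fold higher, where 13% were. The 1 was Rps27l, a paralog of Rps27 known as a p53 target, at 1172 CPM at 0 h and 551 CPM at 48 h (−1.07, and −0.78 with TMM factors, which is under 2-fold). The largest positive ratio was that of Rpl9, a protein of the large subunit, at 4180 CPM at 0 h and 6798 CPM at 48 h (0.70). The spread of the members around their median was 0.284, against 0.182 for CAF-1 OFF at 96 h.

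After 96 h of HOXA9 OFF most RP genes were far lower, and they differed widely among themselves. Of the 79 members, 68 were at least 2-fold lower, which is 86.1%, where 39.8% of all 4789 genes were. Among them 30 were at least 4-fold and 4 at least 8-fold lower, limits at which all genes were not counted. The middle 50% of all genes lay between log2 ratios of −1.59 and 0.55. No member was at least 2-fold higher, where 18.1% of all genes were. The median log2 ratio was −1.74, against −0.56 for all genes, the middle 50% of the members lay between −2.19 and −1.43, and the extremes were −4.22 and 0.36. Of the 79, 78 were below 0 (75 with TMM and with median-of-ratios factors). The spread around the median was 0.753, against 0.0337 from counting. With TMM factors 57 members were at least 2-fold lower, where 30.1% of 4802 genes were. With median-of-ratios factors 54 members were, where 28.6% of 4815 genes were.

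**Figure D2:**
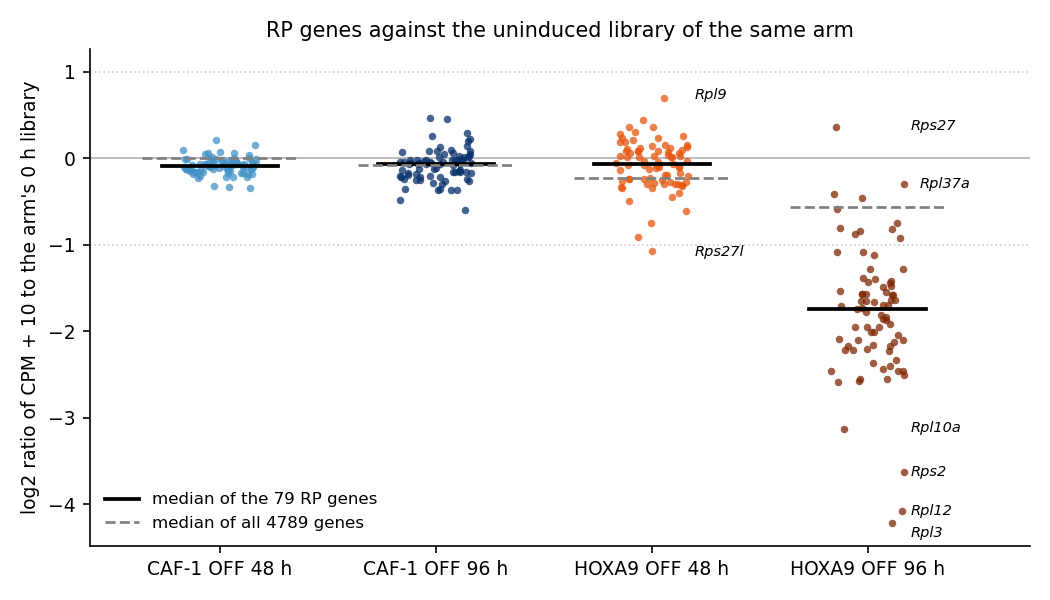
Log2 ratio of each of the 79 counted RP genes (points) to the 0 h library of its arm, after adding 10 CPM, in 4 comparisons with 1 library on each side. Black bars mark the median of the RP genes, dashed grey bars that of all 4789 genes, and dotted lines a 2-fold difference. In HOXA9 OFF 96 h the points run from −4.22 (Rpl3) to 0.36 (Rps27) around a median of −1.74.

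The lowest members at HOXA9 OFF 96 h were Rpl3, Rpl12, Rps2, Rpl10a and Rpsa. Rpl3, which helps to form the peptidyl transferase centre, was at 4096, 3215 and 211 CPM at 0, 48 and 96 h of HOXA9 OFF, beside 4216, 4188 and 3789 CPM along CAF-1 OFF. It was 19.5-fold lower at 96 h than at 0 h of HOXA9 OFF (exact 95% interval 18.1 to 21.0, counting error only). Rpl12, a protein at the base of the stalk, was at 2094, 1240 and 114 CPM along HOXA9 OFF, beside 2074, 1837 and 1613 CPM along CAF-1 OFF, and was 18.3-fold lower (16.6 to 20.3). In both genes the last HOXA9 OFF library stood far below the other 5, and Rpl12 was already lower at 48 h (log2 ratio −0.75) than Rpl3 (−0.35).

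Rps2 was at 5897, 3133 and 467 CPM along HOXA9 OFF, 12.6-fold lower at 96 h (12 to 13.3). Its CAF-1 OFF values are given above and were also among the lowest of that arm. Rpl10a, a large subunit protein of the L1 stalk, was at 3045, 2801 and 340 CPM along HOXA9 OFF, beside 2931, 2797 and 2293 CPM along CAF-1 OFF, and was 8.95-fold lower (8.44 to 9.51). Rpsa, a small subunit protein that also serves as a laminin receptor, was at 3386, 3220 and 554 CPM along HOXA9 OFF, beside 3458, 3045 and 2700 CPM along CAF-1 OFF, and was 6.11-fold lower (5.83 to 6.41). Rps2, like Rpl12, was lower at 48 h (−0.91), while Rpl10a (−0.12) and Rpsa (−0.07) were near their 0 h level then.

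At the other end, a few members were close to their 0 h level or less than 2-fold below it at HOXA9 OFF 96 h. Rps27, a zinc finger protein of the small subunit, was at 1398, 1803 and 1800 CPM, a log2 ratio of 0.36 at 96 h, and was the only counted member above its 0 h level in CPM. These levels are shares of a total that was smaller per cell at the later times. Rps27 had 5857 UMIs in 473 cells at 0 h, 9576 in 1404 cells at 48 h and 6343 in 1510 cells at 96 h. Its UMIs per cell were thus lower at both later times. Rpl37a was at 2686, 3644 and 2175 CPM (−0.30), Rpl37 at 2597, 3164 and 1953 CPM (−0.41) and Rpl9 at 4180, 6798 and 3041 CPM (−0.46). With TMM factors these 4 and no other members were above 0 at 96 h. Rps27a, which is made joined to ubiquitin, was at 5432, 6167 and 3613 CPM (−0.59). Each of these 5 genes was higher in CPM at 48 h than at 0 h, and all but Rps27, at 1803 and 1800 CPM, were lower again at 96 h. The remaining 6 members that were under 2-fold lower were Rps29, Rpl27, Rpl34, Rps28, Rps9 and Rpl38.

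The make-up of the RP mRNA pool at HOXA9 OFF 96 h was thereby different from that at 0 h. Rps27a, at 1.95% of RP UMIs at 0 h, was the most abundant member at 96 h with 4.15%, and Rpl9, at 1.5% before, was next with 3.5%. Rps27 went from 0.502% to 2.07%. Rpl3 went from 1.47% of RP UMIs to 0.242%, and Rps2 from 2.12% to 0.536%. Rpl13a and Rps19, which are among the members with most UMIs over the 6 libraries, took 2.53% and 2.30% of RP UMIs at 0 h and 1.90% and 1.70% at 96 h.

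**Figure D3:**
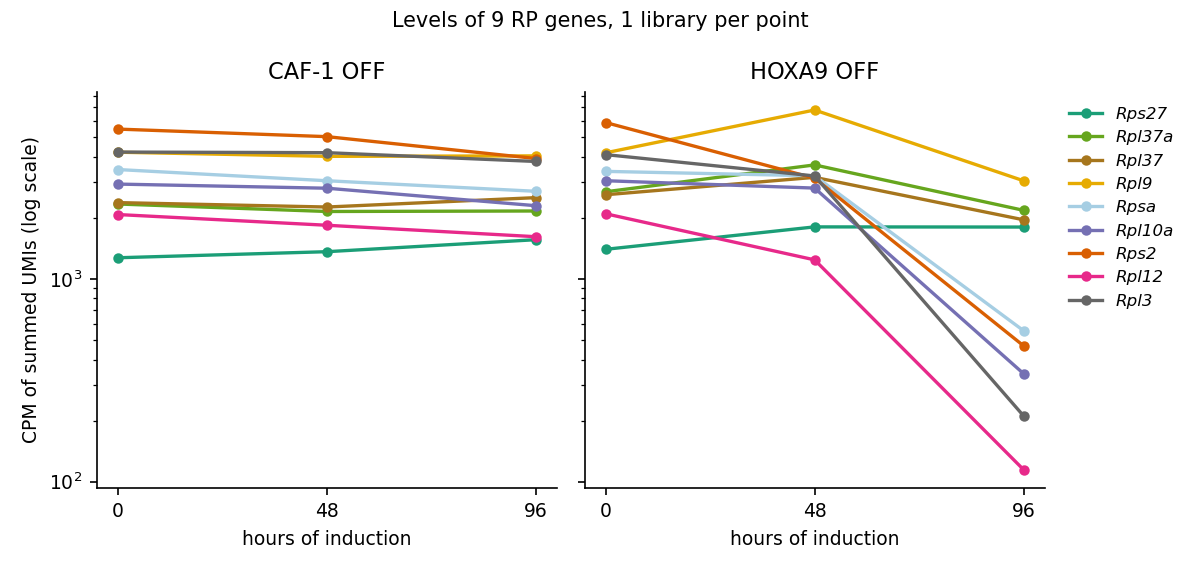
Levels of 9 RP genes in CPM of summed UMIs (y axis, log scale) at 0, 48 and 96 h (x axis) of CAF-1 OFF (left) and HOXA9 OFF (right), 1 library per point and no error bars because there are no replicates. At 96 h of HOXA9 OFF, Rps27, Rpl37a, Rpl37 and Rpl9 lie between 1800 and 3041 CPM, while Rpl3 and Rpl12 lie at 211 and 114 CPM.

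Members with known roles in the ribosome differed from one another at HOXA9 OFF 96 h. Of the stalk proteins, which recruit translation factors, Rplp0 was at 5750, 6885 and 2706 CPM (−1.08), Rplp1 at 4565, 3784 and 835 CPM (−2.44) and Rplp2 at 2936, 2771 and 1090 CPM (−1.42). Rplp0, the anchor of the stalk, was thus less reduced than its partner Rplp1, which was 5.47-fold lower (5.26 to 5.69). In CAF-1 OFF 96 h the 3 log2 ratios lay between −0.19 and 0.14. The proteins that join the 5S RNA, Rpl5 and Rpl11, were at 429 and 1077 CPM at HOXA9 OFF 96 h, from 2193 and 3509 CPM at 0 h (−2.33 and −1.70).

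Of the proteins that line the exit tunnel, Rpl4 was at 756 CPM at HOXA9 OFF 96 h (−2.22), Rpl17 at 1325 CPM (−1.54) and Rpl39 at 799 CPM (−1.64). At HOXA9 OFF 48 h the 3 had been between 0.03 and 0.08 above their 0 h level. A list of 9 genes mutated in Diamond-Blackfan anemia, a failure of red cell production, was set apart and may not hold every such gene. All 9 were at least 2-fold lower at HOXA9 OFF 96 h, as were 86.1% of the members and 39.8% of all genes. Their median log2 ratio was −1.74, the median of all members. Rps19, the most often mutated of them, was at 6402, 6892 and 1480 CPM along HOXA9 OFF. Rps24, Rps7, Rps10 and Rps26 were at 1262, 1021, 681 and 426 CPM at 96 h, with log2 ratios of −1.58, −1.58, −1.74 and −2.11.

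Rps27a and Fau, ribosomal proteins made as fusions with ubiquitin or a ubiquitin-like protein, were less reduced than most members. The name of Fau falls outside the rule for members. Fau, which encodes Rps30 joined to a ubiquitin-like protein, was at 4466, 5905 and 4465 CPM along HOXA9 OFF, beside 4029, 4057 and 4508 CPM along CAF-1 OFF, so that the last HOXA9 OFF library was at its 0 h level. Of the other ribosomal proteins with other names, Rps3a1 was at 4308, 4057 and 1356 CPM along HOXA9 OFF (−1.66). Gnb2l1, the scaffold protein RACK1 on the small subunit, was at 1636, 1101 and 233 CPM (−2.76), beside 1664, 1336 and 1088 CPM along CAF-1 OFF (−0.61).

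Some paralogs differed from their parent genes and others did not. The names of Rpl22l1 and Rpl7l1, like that of Fau, fall outside the rule for members. Rps27l was at 191 CPM at HOXA9 OFF 96 h (−2.56), whereas its parent Rps27 was at 1800 CPM. Rpl22l1 was at 2252, 1595 and 131 CPM along HOXA9 OFF (−4.01), and its parent Rpl22 at 1434, 1166 and 304 CPM (−2.20). Along CAF-1 OFF, Rpl22l1 was at 2200, 2070 and 1339 CPM (−0.71), while Rpl22 was at 1393, 1312 and 1342 CPM (−0.05). Rpl36al and its parent Rpl36a were closer, at 359 and 373 CPM at HOXA9 OFF 96 h (−2.01 and −2.46), and so were Rpl6l and Rpl6 (−1.57 and −1.70). Rpl7l1 was at 68.1 CPM there (−0.70) and Rpl7 at 894 CPM (−1.91). The parents Rpl10 and Rps4x were at 1336 and 1351 CPM (−1.40 and −1.96).

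Rpl3l, known as the muscle form of Rpl3, did not reach the minimum level but went the other way. It had 4, 14 and 10 UMIs along CAF-1 OFF (0.949, 2.5 and 1.85 CPM) but 4, 98 and 176 UMIs along HOXA9 OFF (0.955, 18.5 and 49.9 CPM). Its end lies 450 bases before the start of Msrb1 on chromosome 17, which was at 407, 2646 and 3789 CPM along HOXA9 OFF, and the part of reads from Msrb1 in the counts of Rpl3l was not tested.

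Reads from the many near-identical copies of RP genes can be split between gene columns, so the level of a single gene is less certain than the sum. The 16 pseudogene columns summed to between 624 and 1697 CPM per library, and with them the summed log2 ratio at HOXA9 OFF 96 h was −1.68, as without them. Rps27rt, a retrocopy of Rps27, was at 158, 193 and 207 CPM along HOXA9 OFF and at 166, 177 and 199 CPM along CAF-1 OFF. Its log2 ratios at 96 h were 0.37 and 0.24, beside 0.36 and 0.29 for Rps27. Rpl9-ps6 was at 254, 429 and 199 CPM along HOXA9 OFF, again like Rpl9 (0.73 at 48 h beside 0.70, and −0.34 at 96 h beside −0.46). Rpl23a-ps3 was at 187, 212 and 255 CPM along CAF-1 OFF (0.43 at 96 h beside 0.46 for Rpl23a).

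The arms have their own uninduced libraries, so the members can be set side by side at 96 h. Across the 79 members Spearman's rho between the log2 ratios of CAF-1 OFF and HOXA9 OFF was 0.53 and Pearson's r 0.53, and across all 4789 genes they were 0.51 and 0.48. Genes are not independent replicates, and these values describe 1 library per point. Rps2 and Rpl12 were among the 5 lowest members of both arms, and Rps27 was among the 5 highest of both. Rpl5, the lowest in CAF-1 OFF, had a log2 ratio of −2.33 in HOXA9 OFF, and Rpl3, the lowest in HOXA9 OFF, had −0.15 in CAF-1 OFF. The scale of the 2 arms differed: the members' range was −0.60 to 0.46 in CAF-1 OFF and −4.22 to 0.36 in HOXA9 OFF.

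**Figure D4:**
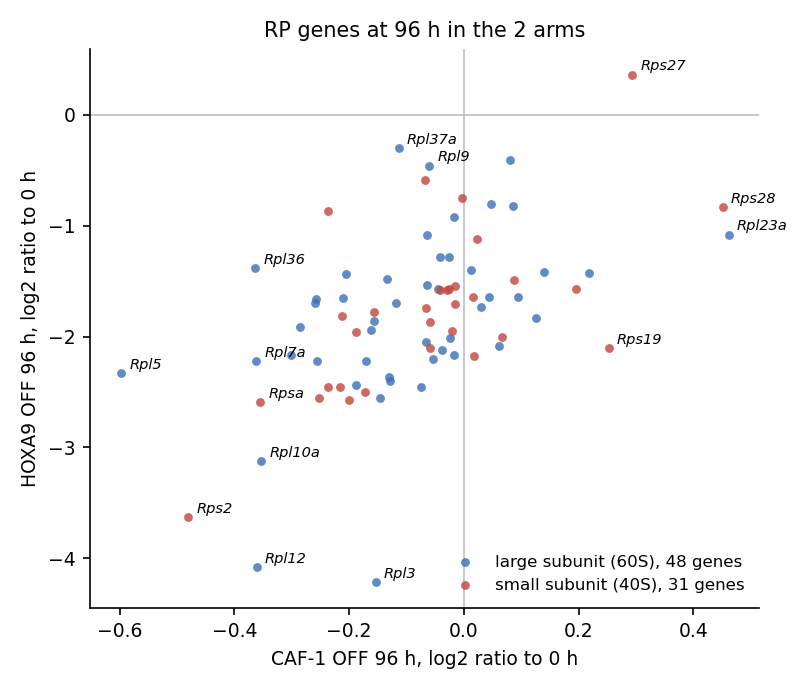
Log2 ratio to 0 h, after adding 10 CPM, of the 79 counted RP genes at 96 h of CAF-1 OFF (x axis) and HOXA9 OFF (y axis), with large subunit genes in blue and small subunit genes in red. The axes differ in scale. Rps2 and Rpl12 lie low on both axes, Rps27 lies in the upper right, and Rpl23a, Rps28 and Rps19 are above 0 in CAF-1 OFF and below 0 in HOXA9 OFF.

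Among cells of 1 library, the RP share was lower in cells with more neutrophil transcripts. In HOXA9 OFF 96 h the median share was 17.3% in 195 cells with at most 1% of UMIs in the 10 neutrophil granule and S100 genes, 12.4% in 56 cells with 1 to 5%, 7.12% in 295 cells with 5 to 15% and 4.74% in 964 cells above that. At 48 h the same bins held 1047, 241, 100 and 16 cells, with medians of 28.0%, 25%, 20.9% and 13.6%. At 0 h all 473 cells were in the lowest bin. In each bin the cells of 96 h were thus lower than those of 48 h.

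The bins share a denominator, since UMIs of neutrophil genes leave less of the total to RP genes. Counted without the neutrophil genes, the RP share summed over the cells of a bin was 18.9%, 13.4%, 9.13% and 6.54% from the lowest to the highest bin at 96 h, and the whole library was at 10.2%. Across the cells Spearman's rho between RP share and neutrophil gene share was −0.51 at 48 h (1404 cells) and −0.68 at 96 h (1510 cells). The RP share also went with total UMIs (rho 0.41) and with the mitochondrial share (0.57) at 96 h, and the part of depth or of cell quality in the pattern was not tested.

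**Figure D5:**
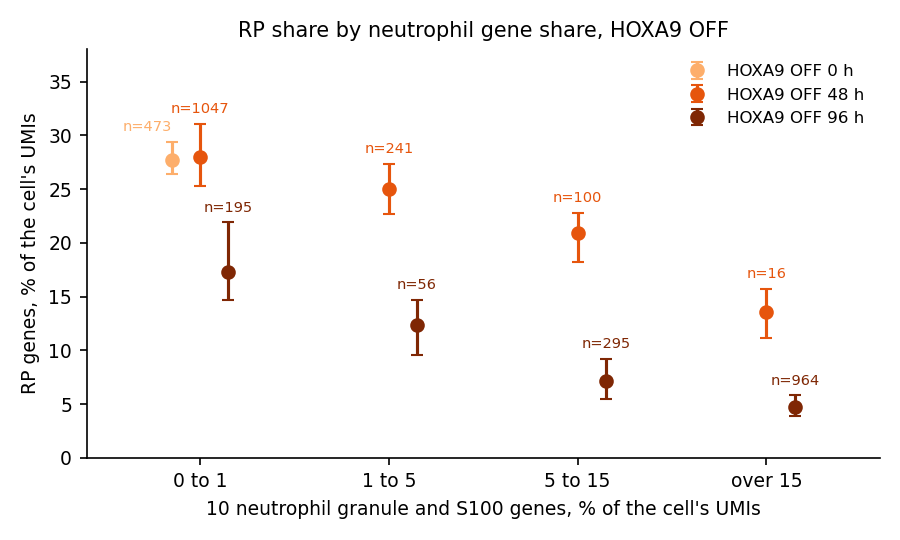
Median RP share of cells, in percent of their UMIs (y axis), by the share of their UMIs in 10 neutrophil granule and S100 genes (x axis, 4 bins), in HOXA9 OFF at 0, 48 and 96 h. Bars run from the lower to the upper quartile over cells, and n gives the number of cells. At 96 h the median goes from 17.3% in the lowest bin to 4.74% in the highest, and in every bin that holds cells of both times it is below that of 48 h.

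The make-up of the RP pool moved along the same bins. From the lowest to the highest bin of HOXA9 OFF 96 h, Rpl3 was at 821, 276, 75.4 and 41.4 CPM, and Rpl12 at 422, 163, 55.8 and 25.2 CPM. Rps27 was at 3227, 2147, 1883 and 1261 CPM, and Rpl37a at 4203, 3394, 2065 and 1434 CPM. The lowest bin of 96 h already differed from the library at 0 h, where Rpl3 was at 4096 CPM and Rps27 at 1398 CPM.

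Cells with eosinophil transcripts had a higher median RP share than the other cells of their HOXA9 OFF library. In cells with over 5% of UMIs in eosinophil genes it was lower at each later time. At 0 h, 5 cells with over 5% of UMIs in eosinophil genes had a median of 36.6%, against 27.6% in 460 cells with at most 1%. At 48 h, 179 cells over 5% had 30.7%, 65 cells with 1 to 5% had 31.5% and 1160 cells with at most 1% had 26.3%. At 96 h these values were 22.1% in 16 cells, 19.3% in 38 cells and 5.45% in 1456 cells. The 195 cells of 96 h with at most 1% of UMIs in neutrophil genes had a median of 17.3%. The part of neutrophil transcripts in the difference was not tested. The share of cell cycle genes had a rho with RP share between −0.24 and −0.36 in the CAF-1 OFF libraries and in HOXA9 OFF at 0 and 48 h, and of 0.17 in HOXA9 OFF 96 h.

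Other genes of the translation machinery were set beside the members, using lists of genes by function. Of 34 translation factors, 25 were at least 2-fold lower at HOXA9 OFF 96 h and 1 at least 2-fold higher, where 39.8% and 18.1% of all genes were, with a median log2 ratio of −1.64 close to the −1.74 of the members. At 48 h 13 of these factors were at least 2-fold lower, where 19.6% of all genes were. Their 3 genes with most UMIs were Eef1a1, which brings aminoacyl-tRNA to the ribosome, at 5039, 4511 and 1137 CPM, Tpt1 at 1731, 1573 and 998 CPM, and Eif5a at 2143, 799 and 337 CPM. The 1 factor at least 2-fold higher was Eif4a2, a helicase of the cap-binding complex, at 101, 222 and 234 CPM.

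The 23 counted genes of ribosome biogenesis, which act in the nucleolus, were lower earlier and further. Of them 20 were at least 2-fold lower at HOXA9 OFF 48 h and 22 at 96 h, with medians of −1.75 and −2.80, and all 23 were below 0 at both times of CAF-1 OFF (medians −0.35 and −0.57), although none by 2-fold. Npm1, a chaperone of ribosome assembly, was at 2926, 953 and 164 CPM along HOXA9 OFF and at 3022, 2026 and 1571 CPM along CAF-1 OFF. Nop10 and Ncl were at 227 and 182 CPM at HOXA9 OFF 48 h, from 994 and 1002 CPM at 0 h. Of 74 counted genes of the mitochondrial ribosome, 28 were at least 2-fold lower at HOXA9 OFF 48 h and 64 at 96 h, with medians of −0.88 and −1.78. Its genes with most UMIs were Mrpl33 at 578, 774 and 870 CPM, Mrps14 at 398, 286 and 122 CPM and Mrpl20 at 378, 214 and 151 CPM. At HOXA9 OFF 48 h, 19.6% of all genes were at least 2-fold lower, beside 1 of 79 cytosolic RP genes (0 with TMM factors). At HOXA9 OFF 96 h, 39.8% of all genes were, beside 68 of 79 cytosolic RP genes. The biogenesis and mitochondrial lists were counted under the main scaling only. Of the control genes of translation, Myc, which drives many of these genes, was at 94.7, 10.4 and 0.567 CPM along HOXA9 OFF, and Eif4ebp1, which restrains cap-dependent translation, at 244, 182 and 346 CPM.

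What the members share in sequence was read from the RefSeq promoter table of build GRCm38.p6, which holds 250 bases before and 50 bases from each annotated start and has entries for 61 of the 82 members. A C at the annotated start followed by at least 4 pyrimidines was present in 13 of the 61 genes (21.3%), against 3.01% of all 27025 genes in the table. A run of at least 7 pyrimidines between 10 bases before and 9 bases after the start was present in 44.3% of members and 14.2% of all genes. In the whole window, CCGGAAG or its reverse complement CTTCCGG, the core of sites for ETS factors, was found in 41.0% of members and 9.93% of all genes. TCTCGCGA or its reverse complement TCGCGAGA was found in 16.4% and 1.13%, AAGATGGCG or CGCCATCTT in 4.92% and 1.64%, and TATAAA on either strand in 9.84% and 15.7%. A match describes letters in the window and not a bound site, and the annotated start can differ from the one used in these cells.

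The windows of 15 bases before to 14 bases after the start are printed for the members at the ends of the HOXA9 OFF 96 h range that have an entry, with the longest run of pyrimidines in capitals and the start as base 16. The lower end is represented by Rpl12 (chr2:32961697-32961726, plus strand), Rps2 (chr17:24720048-24720077, plus), Rpl10a (chr17:28328456-28328485, plus, 1 of 2 annotated starts) and Rpsa (chr9:120127751-120127780, plus).
Rpl12: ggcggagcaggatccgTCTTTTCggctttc
Rps2: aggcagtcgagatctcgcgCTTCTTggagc
Rpl10a: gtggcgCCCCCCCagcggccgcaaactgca
Rpsa: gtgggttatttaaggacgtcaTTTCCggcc

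The upper end is represented by Rps27 (chr3:90213634-90213663, minus strand), Rpl37a (chr1:72711245-72711274, plus), Rpl37 (chr15:5116598-5116627, plus) and Rpl9 (chr5:65391417-65391446, minus).
Rps27: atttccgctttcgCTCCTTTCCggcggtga
Rpl37a: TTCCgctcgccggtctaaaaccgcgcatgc
Rpl37: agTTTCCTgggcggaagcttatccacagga
Rpl9: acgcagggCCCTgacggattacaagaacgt

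Long tracts were found between these ends, as in Rpl15 (chr14:18270972-18271001, minus strand, −2.05 at HOXA9 OFF 96 h) and Rpl35 (chr2:39005117-39005146, minus, −1.44).
Rpl15: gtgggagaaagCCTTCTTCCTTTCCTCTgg
Rpl35: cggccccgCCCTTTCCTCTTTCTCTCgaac

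Members with and without a C and 4 pyrimidines exactly at the annotated start had much the same median ratios. The group without holds genes whose run lies next to that base, as in Rpl12. The split therefore does not separate all genes with a tract from those lacking one. The 13 genes with a C and 4 pyrimidines at the start had a median log2 ratio of −1.74 at HOXA9 OFF 96 h, with a range from −2.55 (Rpl14) to 0.36 (Rps27), and the 45 counted genes without had −1.70. In CAF-1 OFF 96 h both medians were −0.06. By the broader rule, a run of at least 7 pyrimidines near the start, 26 counted genes had a median of −1.82 at HOXA9 OFF 96 h. The 32 counted genes outside that rule had −1.67. The 10 genes with TCTCGCGA or its reverse complement had −2.03, against −1.70 in the 48 without, and included Rpl12 and Rpl10a at −4.08 and −3.13 as well as Rps28 at −0.84. For CCGGAAG the medians were −1.70 in 24 genes with it and −1.72 in 34 without. For TATAAA they were −1.92 in 6 genes and −1.70 in 52, and for AAGATGGCG −1.28 in 3 genes and −1.71 in 55. No difference between such groups was tested.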

How the data were processed

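The deposited table holds raw counts: the authors sorted live cells, prepared 10x Chromium 3′ v2 libraries and wrote UMI counts per gene and cell barcode for GRCm38 (mm10); the submitters' processing notes name Cell Ranger 3.0.1, Scanpy 1.4.6 and Seurat 3.0.1. UMIs make the counts molecules, but reads that match several copies of an RP gene cannot be placed with certainty. All 7821 barcodes carried a library suffix given in the labels, and no column of another sample was used.

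Cells with 200 to 6000 genes and at most 10% UMIs in 13 mitochondrial genes were kept (5872), the limits in the study's methods. UMIs were summed per library and divided by the total (CPM). Ratios are log2((CPM + 10)/(CPM at 0 h + 10)), which understates the change of low genes, over genes whose level averaged at least 20 CPM in the 6 libraries. A difference of at least 2-fold was counted. Folds and their exact 95% intervals are without the added 10 CPM. Shares have exact binomial intervals. Intervals and the floor of 3 counts cover counting error only. Groups came from the labels, with 1 library each, so no test was possible and cells were not used as replicates. Doublets stayed in, and Scrublet called 125 cells (2.13%). Named genes are, per arm, the 5 counted members furthest below and above the members' median at 96 h, the 3 with most UMIs, those with a known role, and 3 genes of each other list. Some genes that this rule names are not reported here. Other named members and copies were chosen after their values were seen. The members and lists were chosen with earlier results of these data known. TMM and median-of-ratios factors, cell filters, pseudocounts and other settings were tried as alternatives. Per-cell alternatives and the thinning to 1000 UMIs were chosen after seeing the data. Calculations used Python 3.11.15, numpy 2.4.6, scipy 1.17.1, pandas 2.3.3 and scanpy 1.11.5, and were tested on simulated data. Coordinates and sequences are from RefSeq tables of GRCm38.p6, where all 82 members matched by symbol.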

Additional observations from a re-analysis of the deposited data

Results flagged for a closer look

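For 3 RP genes the 96 h libraries of the arms lay on opposite sides of their 0 h libraries by at least 0.25 on the log2 scale, with 1 library each and no test of the difference. Rps19 had a log2 ratio of 0.25 for CAF-1 OFF, against −2.11 for HOXA9 OFF. In the same order Rpl23a had 0.46 and −1.08, and Rps28 had 0.45 and −0.84. All 3 ratios for CAF-1 OFF, and that of Rps28 for HOXA9 OFF, were under 2-fold.

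The pseudogene columns of RP genes, which were not members, held up to 1697 CPM in a library (HOXA9 OFF 48 h). The barcodes removed for their mitochondrial UMIs also carried RP transcripts, with a summed RP share of up to 16.1% (HOXA9 OFF 48 h).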

How the results depend on the processing

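With 1 library per group no alternative could leave out a replicate. No paired analysis was possible because each group has 1 library and no test was made. The summed log2 ratio at HOXA9 OFF 96 h stayed below −1 under every scaling and cell set tried: −1.19 with TMM factors, −1.11 with median-of-ratios factors, −1.34 over a total without mitochondrial genes and the 10 most abundant other genes, −1.52 over all barcodes, −1.73 at no more than 5% mitochondrial UMIs and −1.89 as a mean over cells. The small ratios were not stable. In the same order of settings, CAF-1 OFF 48 h was at −0.0977, −0.142, −0.0718, −0.0288, −0.0620 and −0.0911, CAF-1 OFF 96 h at 0.0138, −0.0421, −0.0501, −0.0268, −0.0444 and −0.0741, and HOXA9 OFF 48 h at 0.275, 0.210, 0.0496, 0.114, −0.0511 and −0.0560, so that the sign turned in 5 of these values and the cause was not tested. Rps27l, the 1 gene at least 2-fold lower at HOXA9 OFF 48 h, was under 2-fold (count 0) with TMM, median-of-ratios, the reduced total and all barcodes. Of all genes 13.3%, 14.3%, 17.4% and 16.5% were at least 2-fold lower in these settings. The count was 2 at no more than 5% mitochondrial UMIs, where 22.8% of all genes were, and 4 at 1.5-fold, where 35.0% were. At least 2-fold higher at HOXA9 OFF 48 h was 1 gene with TMM factors (Rpl9), where 17.2% of all genes were. With no minimum level it was 1 gene (Rpl3l), where 5.33% of all genes were, and at 1.5-fold 1 gene (Rpl9), where 20.5% were. With no minimum level 1 gene (Rpl3l) was higher at HOXA9 OFF 96 h, where 9.16% of all genes were. At 1.5-fold 1 gene (Rpl5) was lower at CAF-1 OFF 96 h, where 8.79% of all genes were. Median per-cell shares over all barcodes were 25.5%, 25.2% and 25.5% along CAF-1 OFF, and 5.74% and 26.3% along HOXA9 OFF up to 48 h; at no more than 5% mitochondrial UMIs they were 26.8% at CAF-1 OFF 0 h and 26.1% at HOXA9 OFF 48 h. Leaving out doublet calls or adding pseudogene columns left the summed log2 ratios inside their counting intervals, although the pseudogene columns raised the summed shares themselves.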
